A study of Sus scrofa with 207 samples.

Results

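NIT1 and JAM3 are 2 of the 6765 pig genes that could be named from a probe set with exactly 1 gene symbol, and they were chosen by the slopes of their muscle mRNA on carcass fat area in these same animals. On the array they were taken by symbol alone, as every probe set whose only symbol is NIT1 or JAM3. This gave 3 of 23935 tested probe sets, 2 for NIT1 (gene number 100155270, chromosome 4 in the RefSeq gene table for Sscrofa11.1) and 1 for JAM3 (gene number 100520043, chromosome 9). The NIT1 probe set with the higher mean stands for the gene throughout, and the other one is called the second probe set.

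The samples were muscle taken at slaughter from 207 pigs of a commercial crossbred herd labelled Pix(DLxDE), each hybridised to 1 Affymetrix Porcine Genome Array, and the labels put all of them in a single group with no treatment. They give fat area, measured on the longissimus muscle, for all but 8 of the animals (mean 15.0 ± 3.15 cm2, SD, median 14.5, range 8.1 to 26.7), and those 8 are left out of every value on fat area. Drip loss, the share of weight that a hung slice of the same muscle loses as fluid, was given for all 207 (mean 5.37 ± 2.22%, SD, range 1.45 to 10.82%). The labels as used here give neither sex nor age, so p-values measure the spread between animals of 1 herd whatever else differed among them.

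NIT1 encodes an enzyme of the nitrilase family. It hydrolyses deaminated glutathione, a by-product that transaminases form from glutathione, and so belongs to the enzymes of metabolite repair, which remove damaged or useless side products. JAM3 encodes junctional adhesion molecule C, an immunoglobulin-domain protein of cell contacts that is known from endothelium, where it takes part in junctions and in the passage of leukocytes, and from the complexes that set cell polarity. In muscle tissue such a transcript can come from fibres, vessels, connective tissue or fat cells, and a bulk array cannot tell fewer cells of a type from less RNA per cell.

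All values are log2 expression values, and array medians lay between 5.96 and 6.18. For 24 arrays the correlation with the other arrays was low, and 13 arrays lacked the signal of spiked-in control RNA. The numbers in the sample titles form a lower series and, after a gap, a higher series of 33 animals, and cover 10 blocks of 100 numbers, which the labels do not call batches. Muscle identity was plain in every animal: the mean level of 8 measured fast fibre markers lay between 13.59 and 13.90 and that of 9 slow fibre markers between 11.91 and 12.65. The mean of 12 adipocyte markers ran from 6.79 to 8.76, and that of 16 endothelial markers from 6.51 to 7.40. EIF1AY, the Y-linked copy of a translation initiation factor gene, split the animals into 98 with low values (at most 4.66) and the rest with high values (at least 6.57), with no animal between. Fat area was 13.6 ± 2.78 cm2 (SD, n = 92) in the former and 16.1 ± 3.01 cm2 (SD, all others with a fat area) in the latter. That split was looked at after seeing the data, and values within it are given beside the results that it moved.

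NIT1 varied about 3-fold across the animals. Its lowest value was 8.50, the median was 9.39 and the highest was 10.05, a ratio of 2.93 between the extremes on the linear scale. From the 5th to the 95th percentile the values ran from 8.97 to 9.82, and no animal was at the floor of 4. The SD of 0.268 was higher than in 52.5% of the 1218 probe sets whose mean lay within 0.5 of its own. NIT1 thus varied about as much among these pigs as other transcripts of similar signal. The animal with the lowest NIT1 was on an array of low correlation, and on those 24 arrays NIT1 averaged 9.30 ± 0.37 (SD) against 9.41 ± 0.25 on all others.

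The second probe set of NIT1 was dim, with a lowest value of 4.85, a median of 5.58, a highest value of 6.08 and an SD of 0.235. It followed the first one in part. Over the 207 animals r was 0.370 and rho was 0.338 (permutation p = 1e-05 each, the smallest that 100000 permutations can give, adjusted p = 5e-05 over 5 relations). Without the 2 animals farthest from the median r was 0.330, and it was 0.362 in the lower and 0.416 in the higher number series. Of all 23934 other probe sets, the bright NIT1 probe set had the highest correlation with the second one. From the other side, 89 probe sets without that symbol correlated more closely with bright NIT1 than the second one did, which placed it at rank 90.

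JAM3 was dimmer than the bright NIT1 probe set, which says nothing of their relative amounts. Its lowest value was 6.57, the next 6.93, the median 7.54 and the highest 8.10, a ratio of 2.89 between the extremes that 1 animal sets in large part. From the 5th to the 95th percentile the values ran from 7.13 to 7.89. The SD of 0.231 was higher than in 32.8% of the 3259 probe sets with a mean within 0.5, so JAM3 was among the steadier transcripts of its signal range. Its lowest animal was also on an array of low correlation, and on the 24 such arrays it averaged 7.44 ± 0.33 (SD) against 7.54 ± 0.21 on the others. Along the title numbers block means ran from 9.22 to 9.53 for NIT1 and from 7.43 to 7.63 for JAM3, and the blocks accounted for 13.9% and 8.34% of their variance.

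Fat area is the trait on which both genes were chosen, so its relation to them is described here and not tested. In limma, a linear model fitted to each probe set, 29 of 23935 probe sets passed an adjusted p of 0.05 for fat area, or 0.121%, and with 1 probe set per gene 10 of 6765, or 0.148%. NIT1 and JAM3 were among them. These calls were lost inside the EIF1AY split: of the 6765 genes 0 passed in limma among animals with low and 0 among those with high EIF1AY, where 270 and 329 had an unadjusted p under 0.05. With the shared component of EIF1AY and SRY, another Y-linked gene, in the fit 0 genes passed and 404 had an unadjusted p under 0.05. The log2 slopes per SD of fat area were then 0.085 ± 0.019 for NIT1 and -0.053 ± 0.017 for JAM3 (SE). NIT1 was higher in fatter pigs, by 0.097 ± 0.018 on the log2 scale for each SD of that trait (SE), which is 6.94% per SD. JAM3 was lower, with a slope of -0.068 ± 0.016 (SE), or -4.62% per SD. Fat area accounted for 12.9% of the variance of NIT1 and 8.59% of that of JAM3, so most of the spread of both lay among animals of like fatness.

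Across 6 bands of fat area the mean of NIT1 stepped up unevenly. It was 9.25 ± 0.23 (SD, n = 34) in the leanest band, which reached up to 12 cm2, then 9.32, 9.41, 9.38 and 9.46, and 9.56 ± 0.25 (SD, n = 34) in the fattest, which began at 18.5 cm2. In the leanest band NIT1 ran from 8.84 to 9.75 and in the fattest from 9.09 to 10.05, so the bands overlapped over most of their range. Of the leanest 34 animals 8 lay above the overall median of NIT1, and of the fattest 34 it was 22. The 10 animals with the smallest fat area averaged 9.26 ± 0.28 (SD) and the 10 with the largest 9.63 ± 0.29 (SD). A square term added to the line was -0.013 ± 0.013 (SE), no larger than its error, and the slope was 0.16 ± 0.061 below the median fat area and 0.10 ± 0.035 above it. The relation of NIT1 to fat area therefore had no bend that these data could resolve.

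For JAM3 the leaner bands lay above the fatter ones. Band means were 7.62 ± 0.18 (SD, n = 34), 7.54 and 7.61 in the lean bands and 7.47, 7.45 and 7.42 ± 0.21 (SD, n = 34) in the fat ones. In the leanest band 24 of 34 animals lay above the overall JAM3 median and in the fattest 8 of 34. The leanest band ran from 7.22 to 7.91 and the fattest from 6.93 to 7.86, again with wide overlap. On either side of the median fat area the slope of JAM3 was within 1.5 SE of 0, with -0.064 ± 0.050 below and -0.022 ± 0.033 above, and the square term was 0.015 ± 0.011 (SE). Each of these slopes rests on part of the animals, and a step was not tested against a line.

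**Figure D1:**
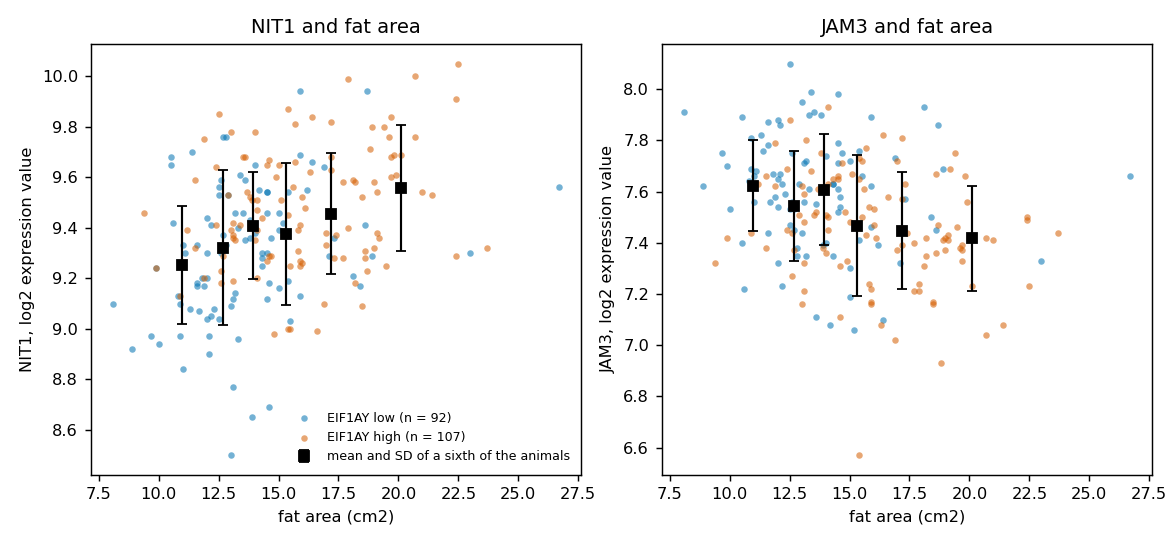
Log2 expression of NIT1 (left) and JAM3 (right) against fat area in cm2 for the animals with a fat area, coloured by low or high EIF1AY, with squares for the mean and bars for the SD of each of 6 bands of fat area. NIT1 band means climb from 9.25 to 9.56 and JAM3 band means go from 7.62 down to 7.42, with wide overlap between bands.

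The sign of the relation was the same in most subsets. For NIT1 r with fat area was 0.359 and rho 0.337 over all animals with a fat area, and for JAM3 they were -0.293 and -0.311. Inside the blocks of title numbers r of NIT1 was positive in 10 of 10 (0.131 to 0.926) and r of JAM3 negative in 9 of 10 (-0.706 to 0.173). In the lower number series r was 0.389 for NIT1 and -0.349 for JAM3. In the higher series, with 25 animals, they were 0.214 and -0.056, and the JAM3 slope there was -0.013 ± 0.047 (SE). Without the 2 animals farthest from the median fat area r was 0.373 and -0.318. The second NIT1 probe set had the same sign with a smaller slope, 0.050 ± 0.016 (SE, r = 0.213), and it was not among the 29 that passed.

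Both genes also differed between animals with low and high EIF1AY, which themselves differed in fat area. NIT1 averaged 9.30 ± 0.27 (SD, n = 98) with low and 9.48 ± 0.24 (SD) with high EIF1AY, and JAM3 averaged 7.61 ± 0.22 and 7.45 ± 0.22. Among animals with low EIF1AY the NIT1 slope on fat area was 0.086 ± 0.031 (SE, n = 92). Among those with high EIF1AY it was 0.063 ± 0.023 (SE), each slope being per SD of fat area over all animals with that label. For JAM3 the slopes were -0.035 ± 0.026 and -0.055 ± 0.022. Over all animals with a fat area, that trait and the EIF1AY split together accounted for 17.2% of the variance of NIT1, against 12.9% for fat area and 11.0% for the split alone. For JAM3 the values were 13.4%, 8.59% and 10.0%. Of the JAM3 relation to fat area, less was left inside the split: with low EIF1AY the slope was within 1.5 SE of 0. The part of sex in these values was not tested, since the labels as used here do not give it.

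**Figure D2:**
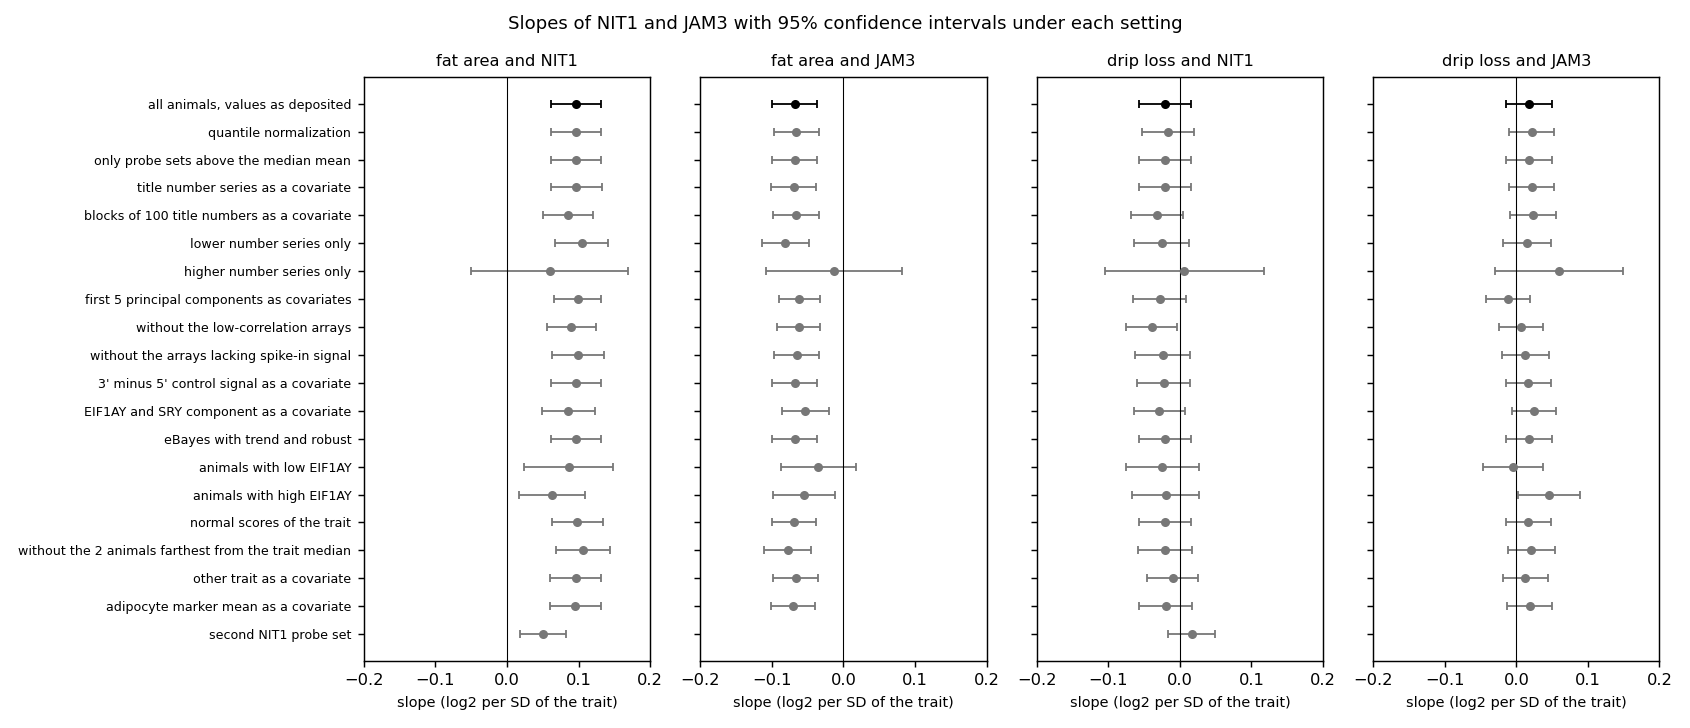
Slopes of NIT1 and JAM3 (log2 per SD of the trait) with 95% confidence intervals, for fat area (2 left panels) and drip loss (2 right panels), black for all animals and grey for each alternative. The fat area slopes are all above 0 for NIT1 and all below 0 for JAM3, closest to 0 for JAM3 in the higher number series, while the drip loss slopes lie on both sides of 0.

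NIT1 and JAM3 went against each other in these animals, but weakly. Over 207 animals their r was -0.191 and rho -0.201. The choice of a gene that rose and a gene that fell with fat area favours a negative sign. With fat area taken out of both, r was -0.088 and rho -0.106 (permutation p = 0.215 and 0.137, adjusted p = 0.322 and 0.228 over 5 relations). The remaining r was -0.072 in the lower and -0.122 in the higher number series, and -0.114 without the 2 animals farthest from the median. It was -0.182 without the 24 arrays of low correlation (permutation p = 0.016, not adjusted) and -0.148 with 5 principal components of expression taken out (permutation p = 0.038, not adjusted). It was 0.0067 among animals with high EIF1AY (permutation p = 0.945), so a relation of the pair beyond fat area was not established.

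Drip loss played no part in choosing the genes, and neither gene passed the test for it. In limma 1103 of 23935 probe sets passed for drip loss, or 4.61%, and 411 of 6765 genes, or 6.08%. That background was far from fixed: the 411 genes held 268 increases, and this count became 26 with blocks of title numbers in the fit, 1 with 5 principal components of expression, 48 in the lower number series and 43 without the arrays of low correlation. Over all probe sets the 1103 became 13 with the components. In the higher number series 0 passed, with 1789 at an unadjusted p under 0.05. The NIT1 slope was -0.021 ± 0.019 log2 units for each SD of that trait (SE, n = 207), with a 95% interval of -0.058 to 0.015 and a limma adjusted p of 0.576. The JAM3 slope was 0.018 ± 0.016 (SE, n = 207), with an interval of -0.014 to 0.049 and a limma adjusted p of 0.592. Both intervals leave room for a small change in either direction.

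The ranks gave the same picture. For NIT1 and drip loss r was -0.079 and rho -0.111 (permutation p = 0.258 and 0.112, adjusted p = 0.322 and 0.228 over 5 relations). For JAM3 they were 0.077 and 0.056 (permutation p = 0.272 and 0.423, adjusted p = 0.322 and 0.423). Without the 2 farthest animals r was -0.074 for NIT1 and 0.088 for JAM3. It was -0.098 in the lower and 0.020 in the higher number series for NIT1, and 0.064 and 0.236 for JAM3. The second NIT1 probe set had a slope of the other sign, 0.016 ± 0.016 (SE, adjusted p = 0.638), and r = 0.069. Over the alternatives the limma adjusted p lay between 0.310 and 0.991 for NIT1 and between 0.372 and 0.960 for JAM3, and drip loss accounted for 0.63% and 0.59% of their variance.

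The animals on the 24 arrays of low correlation had a drip loss of 4.195 ± 1.547% (SD) against 5.526 ± 2.246% in the others. Without those arrays the slope of NIT1 was -0.040 ± 0.018 (SE, limma adjusted p = 0.310, unadjusted p = 0.030) and that of JAM3 0.0065 ± 0.016 (SE). Split by EIF1AY, the JAM3 slope was -0.0047 ± 0.021 (SE, n = 98) with low values and 0.045 ± 0.022 (SE, limma adjusted p = 0.372, unadjusted p = 0.042) with high ones, a difference that was not tested. For NIT1 the slopes were -0.025 ± 0.026 and -0.020 ± 0.024. By bands of drip loss neither gene moved steadily. NIT1 averaged 9.36 ± 0.32 (SD, n = 35) in the band of lowest drip loss, 9.47 ± 0.28 (SD, n = 34) in the fourth band and 9.35 ± 0.25 (SD, n = 35) in the highest. JAM3 averaged 7.51 ± 0.19, 7.60 ± 0.23 and 7.56 ± 0.20 in the same bands.

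**Figure D3:**
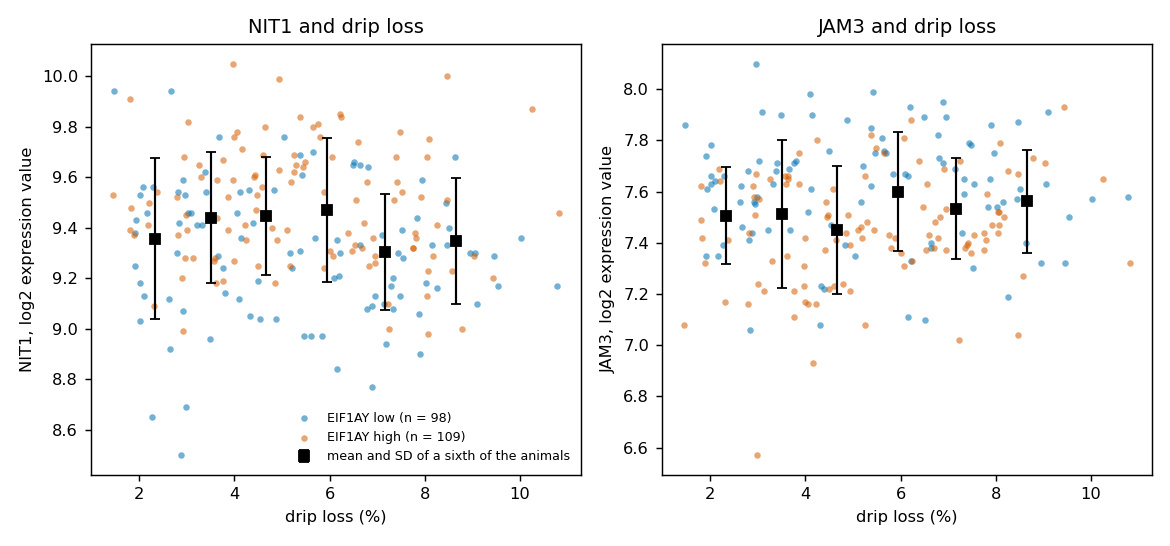
Log2 expression of NIT1 (left) and JAM3 (right) against drip loss in percent for all 207 animals, coloured by low or high EIF1AY, with squares for the mean and bars for the SD of each of 6 bands of drip loss. Band means stay between 9.30 and 9.47 for NIT1 and between 7.45 and 7.60 for JAM3.

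The levels of NIT1 across animals ran with those of many other transcripts. Each gene was regressed on the NIT1 level by limma, with slopes per SD of NIT1 and Benjamini-Hochberg adjustment over the 23934 other probe sets. Of 6764 other genes 884 rose with NIT1, or 13.1%, and 490 fell, or 7.24%, while of all 23934 other probe sets 1827 rose and 2066 fell. The nearest was BCAP31, which sorts membrane proteins at the endoplasmic reticulum, with r = 0.550 over 207 arrays and a slope of 0.147 ± 0.016 (SE, limma adjusted p = 2.0e-13). Next came SELENOH, a selenoprotein of the nucleus, with r = 0.520, and PACSIN3, a membrane-bending adaptor of muscle, with r = 0.488. Then followed SZRD1 (r = 0.472), the ubiquitin ligase RNF19B (0.460), the mitotic kinase NEK6 (0.458) and TMEM183A (0.452). The hydroxylase JMJD6 (0.446), the small heat shock protein CRYAB (0.441) and the small GTPase ARF2 (0.437) closed the 10.

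The 5 genes most opposed to NIT1 were CCDC25 (r = -0.420), the deubiquitinase USP9X (-0.411), the filopodial myosin MYO10 (-0.396), the splicing regulator CELF2 (-0.377) and the taxilin TXLNB (-0.375). All 15 kept their sign in both number series, in animals with low and with high EIF1AY, without the arrays of low correlation, and with blocks, fat area or 5 principal components taken out. With the components taken out r ran from 0.378 to 0.548 for the 10 and from -0.449 to -0.264 for the 5, and limma passed all of them. The 15 were picked for the most extreme r over these same arrays, so kept signs and passing were largely set by the choice. USP9X had r = -0.362 among animals with low and -0.191 among those with high EIF1AY, a difference that was not tested. USP9X was also the only one of the 15 that passed for fat area, with a slope of -0.092 ± 0.021 (SE, limma adjusted p = 0.028), a call that, like all for fat area, was lost with the EIF1AY and SRY component in the fit. SELENOH alone passed for drip loss, rising by 0.044 ± 0.014 (limma adjusted p = 0.048; 0.395 without the arrays of low correlation). The fat area slopes of the 10 were all positive (0.024 to 0.063), 8 of them with an unadjusted p under 0.05, and those of the 5 were all negative, for a gene that was itself chosen on fat area.

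JAM3 had a different set around it. Of 6764 other genes 1097 rose with JAM3, or 16.2%, and 275 fell, or 4.07%. Over all 23934 other probe sets 2209 rose and 1048 fell, and after quantile normalization 2544 rose and 2375 fell, so the excess of increases depended on the scaling. The closest was MAGED1, a melanoma antigen family adaptor, with r = 0.538 and a slope of 0.126 ± 0.014 (SE, n = 207, limma adjusted p = 8.6e-13). MAGED1 was also the least even of the 10, with r = 0.598 in the lower number series and 0.143 in the higher. PPOX, an enzyme of heme synthesis, had r = 0.522, and the efflux transporter ABCG2 r = 0.502. C5H12orf57 (0.498), the phosphatase regulator ENSA (0.482), the dynactin subunit ACTR1B (0.481) and the septin SEPT4 (0.474) came next. The sodium pump regulator FXYD6 (0.474), the acyltransferase AGPAT3 (0.473) and the coat protein COPZ2 (0.469) followed.

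Opposed to JAM3 were the poly(A) polymerase FAM46C (r = -0.425), the myosin light chain kinase MYLK (-0.402), the chaperone HSPH1 (-0.393), the cochaperone DNAJA1 (-0.370) and JMJD6 (-0.363). Again all 15 kept their sign under the same changes, which their choice on the same arrays largely sets. With 5 principal components taken out r ran from 0.324 to 0.520 for the 10 and from -0.446 to -0.305 for the 5. For fat area 0 of the 15 passed in limma, while 5 of the 10 and 4 of the 5 had an unadjusted p under 0.05. C5H12orf57 alone passed for drip loss, rising by 0.059 ± 0.018 (limma adjusted p = 0.038; 0.260 without the arrays of low correlation).

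JMJD6 stood on both sides, with r = 0.446 to NIT1 and -0.363 to JAM3. HSPH1 and DNAJA1, picked for their opposition to JAM3, had r = 0.429 and 0.372 with NIT1, and FAM46C had 0.236. The other genes on either side had an r between -0.231 and 0.113 with the other gene of the pair. The JMJD6 slopes on fat area (0.052 ± 0.019, limma adjusted p = 0.465) and on drip loss (-0.038 ± 0.019, adjusted p = 0.242) did not pass.

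**Figure D4:**
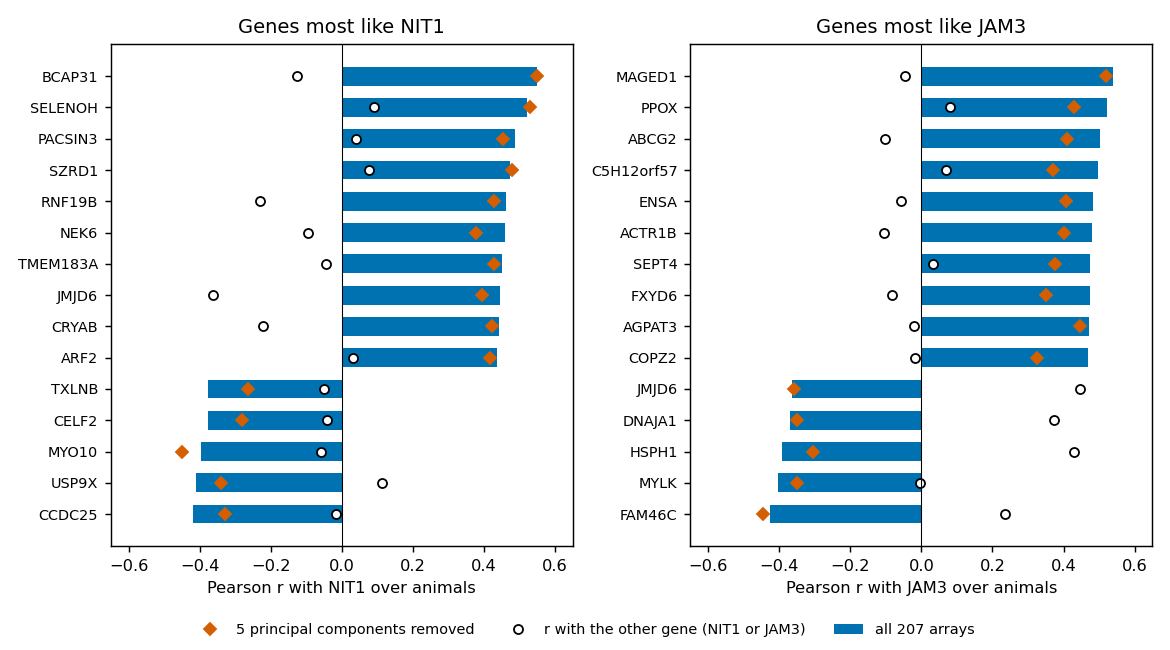
Pearson r over 207 animals of the 10 genes most like and the 5 most opposed to NIT1 (left) and JAM3 (right): bars for all arrays, diamonds with 5 principal components of expression taken out, open circles for r with the other gene of the pair. Diamonds keep the sign of the bars, and JMJD6, HSPH1 and DNAJA1 have circles between 0.372 and 0.446 in the right panel.

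The neighbours of NIT1 on its chromosome did not pass with it over all arrays. Of the 5 genes on either side of NIT1 in the RefSeq gene list, 7 were measured, and their r with NIT1 ran from -0.126 to 0.168. In limma 0 passed, and 3 had an unadjusted p under 0.05. The closest measured neighbour was DEDD, a death-effector domain protein, with r = 0.120 (adjusted p = 0.242), and B4GALT3, a galactosyltransferase, had r = 0.168 (adjusted p = 0.077). With 5 principal components in the fit both passed, B4GALT3 with r = 0.302 (limma adjusted p = 4.9e-04) and DEDD with r = 0.187 (adjusted p = 0.049), and without the arrays of low correlation their r was 0.312 and 0.257. PPOX is the fifth gene from NIT1 and had r = 0.080 with it, while with JAM3, which lies on another chromosome, it had 0.522. UFC1, the conjugating enzyme of the small modifier UFM1, rose with drip loss by 0.059 ± 0.019 (SE, limma adjusted p = 0.042; 0.368 without the arrays of low correlation). Around JAM3 4 of 10 neighbours were measured, and 2 rose with it. ACAD8, an enzyme of valine breakdown, had r = 0.370 (adjusted p = 6.0e-06), and the condensin subunit NCAPD3 had r = 0.212 (adjusted p = 0.024; 0.462 with 5 principal components). VPS26B, a retromer subunit, had r = 0.181 (adjusted p = 0.060) and THYN1 0.034.

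Genes of glutathione metabolism, the pathway whose by-product NIT1 hydrolyses, were compared with NIT1 next. Of 26 measured, 6 rose and 2 fell with it, against 13.1% and 7.24% of all genes. The glutaredoxin GLRX had r = 0.292, the secreted peroxidase GPX3 0.288 (adjusted p = 7.8e-04) and the peroxidase GPX2 -0.221. The synthetase GSS had r = 0.205 (adjusted p = 0.027), and GCLC, the catalytic subunit of the first step of synthesis, had r = 0.070 (adjusted p = 0.558). The median r of the 26 was 0.094, against 0.017 over all genes. Without the 24 arrays of low correlation 2 of the 26 rose and 3 fell, where 6.83% and 5.62% of all genes did, and the median r was 0.019. In animals with low EIF1AY 1 of the 26 rose, against 7.13% of all genes, and in those with high EIF1AY 1 rose, against 2.74%. Inside these subsets the list thus lay near the share of all genes.

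Enzymes of metabolite repair and transaminases, the list that NIT1 belongs to by function, gave 2 of 12 that rose with it, against 13.1% of all genes. These were the epimerase NAXE, which repairs damaged NADH (r = 0.223, adjusted p = 0.013), and the branched-chain transaminase BCAT2 (r = 0.202, adjusted p = 0.026). Without the arrays of low correlation 0 of the 12 rose and BCAT1 fell. Of the same list 6 of 12 rose with JAM3, against 16.2% of all genes, among them the kinase-related FN3KRP (r = 0.393, adjusted p = 1.1e-06), the carbohydrate kinase FGGY (r = 0.346) and the alanine transaminase GPT (r = 0.278). That count was 5 without the arrays of low correlation (9.85% of all genes) and 5 with principal components (8.19%), 1 among animals with low EIF1AY (6.02%) and 6 among those with high (11.0%). With JAM3, 7 of 26 glutathione genes rose, or 26.9%, and 0 fell, led by MGST3 (r = 0.342), GSTZ1 (0.322) and GSTO1 (0.313), while 1 had fallen at an unadjusted p under 0.05. Of the nitrilase relatives of NIT1, UPB1, VNN1 and VNN2 were measured and 0 passed with it in limma, at unadjusted p under 0.05 also 0.

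Endothelial markers rose with JAM3 in part. Of 16 measured 7 rose with it and 0 fell, against 16.2% and 4.07% of all genes. A positive slope was found for 15 of 16, where 4243 of 6765 genes had a positive r with JAM3. CDH5, the cadherin of endothelial junctions, had r = 0.349 and a slope of 0.102 ± 0.019 (SE, n = 207, limma adjusted p = 2.3e-05). PECAM1, an adhesion molecule of the same contacts, had r = 0.346 (adjusted p = 2.8e-05) and the endothelial claudin CLDN5 r = 0.326 (adjusted p = 8.8e-05). CD34 (0.277), ESAM (0.269), the angiopoietin receptor TEK (0.233) and TIE1 (0.189) made up the rest. The median r of the list was 0.164, against 0.042 over all genes, and with 5 principal components 8 rose (8.19% of all genes) and it was 0.189. Without the arrays of low correlation 6 rose (9.85% of all genes). Split by EIF1AY, 0 rose in limma among the 98 animals with low values, where 6 had risen at an unadjusted p under 0.05 and 6.02% of all genes rose, and 4 among those with high values, where 11.0% did. In the higher number series 0 rose in limma, against 0.503% of all genes.

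ESAM is also a relative of JAM3, and of 5 other measured genes of its family and partners it alone rose (adjusted p = 0.0021). The binding partners F11R, JAM2 and PARD3 were not analysed here, nor were NIT2 and FHIT, since none was named by a probe set of its own. Of 16 tight junction and polarity genes 3 rose with JAM3, or 18.75%, near the 16.2% of all genes. These were CLDN5, CLDN7 (r = 0.259) and the polarity kinase PRKCZ (r = 0.189, adjusted p = 0.048). The count was 1 without the arrays of low correlation (9.85% of all genes). It was 0 among animals with low EIF1AY (6.02%), where 4 had an unadjusted p under 0.05 in limma. The scaffold TJP1, which binds such adhesion molecules from inside the cell, had r = 0.125 (adjusted p = 0.240). With NIT1 0 of these 16 rose and 3 fell, against 13.1% and 7.24% of all genes. Those that fell were the scaffold MPDZ (r = -0.323, adjusted p = 1.6e-04), CLDN11 (-0.218) and MARVELD3 (-0.199).

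Markers of the cells around vessels rose with JAM3 as well. Of 9 pericyte and smooth muscle markers 4 rose, the actin ACTA2 (r = 0.350), the receptor PDGFRB (0.312), RGS5 (0.298) and SMTN (0.190), and MYLK fell. Of 12 fibroblast and matrix markers 7 rose, with the collagen COL5A1 at r = 0.392 (adjusted p = 9.3e-07), the matrix protein SPARC at 0.379 and THY1 at 0.312. The mean level of these 12 ran from 7.61 to 9.79 over the animals and that of the 9 from 9.13 to 9.87. Both counts stand against 16.2% of all genes. Without the arrays of low correlation 2 fibroblast markers rose (9.85% of all genes) and with 5 principal components 3 (8.19%), while of the pericyte and smooth muscle markers 4 and 5 did. Among animals with low EIF1AY 1 fibroblast marker and 0 pericyte and smooth muscle markers rose in limma (6.02% of all genes), with 4 and 3 passing an unadjusted p of 0.05. Among those with high EIF1AY 7 and 3 rose (11.0%). The part of the share of vessels or connective tissue in the JAM3 level was not tested.

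With NIT1 few genes of these lists passed over all arrays, where 13.1% of all genes rose and 7.24% fell. Of 16 endothelial markers 0 rose and ERG fell (r = -0.215), and 1 had risen at an unadjusted p under 0.05. After quantile normalization 2 rose and 1 fell. Of 12 fibroblast and matrix markers DCN fell (r = -0.189, adjusted p = 0.040). Without the arrays of low correlation 4 of the 12 fell, with 12 of 12 slopes negative. The median r of the list was then -0.178, against -0.0097 over all genes, whose share that fell is given with the glutathione genes. Of the pericyte and smooth muscle markers 0 passed, with 0 at an unadjusted p under 0.05.

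Slow fibre markers rose with NIT1 in part. Of 9 measured 4 rose, the light chain MYL2 (r = 0.285, adjusted p = 0.0017) and the troponins TNNI1 (0.223), TNNT1 (0.214) and TNNC1 (0.207). All 9 had a positive slope, where 3703 of 6765 genes had a positive r with NIT1. The count of 4 stands against 13.1% of all genes. It was 4 with principal components (15.8% of all genes), 1 with fat area in the fit (13.0%), 1 after quantile normalization (16.5%) and 0 in limma without the 24 arrays of low correlation (6.83%), where 0 had an unadjusted p under 0.05. It was 4 among animals with low EIF1AY (7.13%) and 0 among those with high (2.74%), where 1 had an unadjusted p under 0.05. With JAM3 4 of the 9 rose too (TNNI1, MYL3, TNNT1, TNNC1), against 16.2% of all genes. That count was 2 without those arrays (9.85%) and 0 with principal components (8.19%). Among animals with low EIF1AY it was 0 (6.02%) and among those with high EIF1AY 7 (11.0%). Of 8 fast fibre markers 0 passed with either gene, and 0 had an unadjusted p under 0.05. After quantile normalization MYLPF and TNNC2 fell with NIT1, and with 5 principal components ATP2A1 rose with JAM3.

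**Figure D5:**
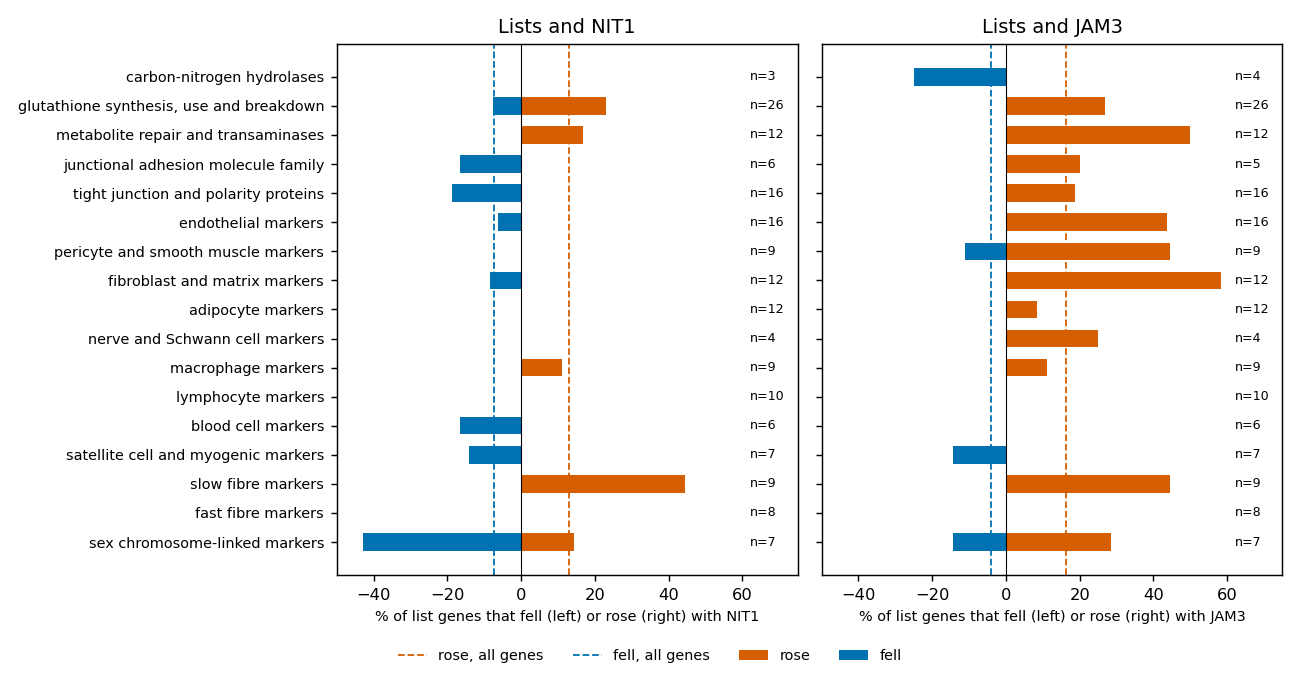
Percent of the measured genes of each list that rose (right of 0) or fell (left of 0) with NIT1 and with JAM3 in limma, with dashed lines for the percent of all genes and the number of measured genes at the right. The longest bars to the right are slow fibre markers for NIT1 (44.4%) and fibroblast, metabolite repair, endothelial, pericyte and slow fibre markers for JAM3 (43.75% to 58.3%).

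Few markers of other cell types passed with either gene. Of all genes 16.2% rose and 4.07% fell with JAM3, and 13.1% rose and 7.24% fell with NIT1. Lists this small were not told apart from those shares. FABP4, the fatty acid binding protein of fat cells, was the 1 of 12 adipocyte markers that rose with JAM3 (r = 0.254), and 0 passed with NIT1, where 1 had an unadjusted p under 0.05. S100B, of 4 nerve markers, and FCER1G, of 9 macrophage markers, rose with JAM3. The growth inhibitor MSTN, of 7 satellite cell and myogenic markers, fell with JAM3 (r = -0.235). With NIT1 the macrophage marker CD14 rose, while ALAS2, of 6 blood cell markers, and MYOD1, of the 7 myogenic markers, fell. Lymphocyte markers gave 0 of 10 with either gene, at unadjusted p under 0.05 also 0. Of 7 measured sex chromosome-linked markers EIF1AY rose with NIT1 (r = 0.310) and fell with JAM3 (r = -0.333), and KDM6A and TXLNG did the reverse. EIF1AX also fell with NIT1 (r = -0.311, limma adjusted p = 2.5e-04). SRY (r = 0.023), KDM5C (0.111) and ZFX (-0.053) did not pass with NIT1. Within the animals with low and with high EIF1AY, r of EIF1AY itself was 0.0092 and -0.241 with NIT1, and -0.095 and -0.026 with JAM3. The split was made on EIF1AY itself and narrows its range, so its r over all animals could hardly be kept inside the split. Values inside it are not given here for KDM6A, TXLNG and EIF1AX.

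Outside the sex chromosome-linked markers, of which EIF1AY, KDM6A and TXLNG passed for fat area, the genes of the fixed lists that passed for it in limma were NIT1 and JAM3 themselves. Over all 23935 probe sets 1692 had an unadjusted p under 0.05 for fat area in limma, in either direction. Of 16 endothelial markers 14 had a negative slope, 6 with an unadjusted p under 0.05. The share of negative slopes over all genes was not set beside this. PECAM1 came nearest with -0.083 ± 0.021 (SE, adjusted p = 0.072). Of 26 glutathione genes 2 and of 12 metabolite repair genes 0 had an unadjusted p under 0.05 for fat area. Of 12 adipocyte markers 0 did. CPT1A, which starts the transport of long-chain fatty acids into mitochondria, is in none of these lists and also passed for fat area. Its slope was -0.13 ± 0.030 (SE, limma adjusted p = 0.038), a call lost with the EIF1AY and SRY component in the fit. Its r was 0.283 with JAM3 (adjusted p = 9.3e-04) and -0.176 with NIT1 (adjusted p = 0.059). With fat area taken out these r were 0.233 and -0.077.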

How the data were processed

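Per the labels' protocols, muscle total RNA was DNase-treated, cleaned up and turned into biotinylated cRNA. The authors processed the arrays with GCOS 1.1.1 and PLIER, per the submitters' processing notes. The deposited values are log2 expression values with a floor at 4, and any scaling between arrays is not given in the sources used here. They were used as they stand. Of 24123 probe sets 188 controls were left out. Symbols came from the array annotation, and 10069 probe sets had exactly 1. For lists and neighbours 1 probe set stood for each gene, the one with the highest mean. No coordinates are printed because no genome build is named for the array values.

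Each probe set was fitted with lmFit and eBayes of limma 3.58.1 (R 4.3.3) on drip loss, fat area or the level of NIT1 or JAM3, each scaled to SD 1, with two-sided Benjamini-Hochberg adjusted p-values and a threshold of 0.05. Fits on fat area left out the 8 animals without it. Correlation p-values used 100000 permutations, two-sided, in a family of 5. The pipeline was tested on simulated data. The number of arrays limits the precision.

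The members, the 17 gene lists and the rules were chosen with earlier results of these data known, fat area among them. Named were the 10 genes most like and the 5 most opposed to each gene by r, among those with 1 symbol, a mean above 6.10 (the median) and a rho of the same sign, taking the probe set with the largest r in size. Also named were the 5 neighbours on each side, up to 3 passing genes of each list, and NIT2, FHIT, F11R, JAM2, ESAM, PARD3, TJP1, GCLC, GSS, CPT1A and EIF1AY. Further passing genes of the lists were named after their values were seen. Alternatives covered scaling, a filter on dim probe sets, title numbers, array quality, principal components, covariates and animals left out. The split by EIF1AY was added after seeing the data, at a boundary of 5.5.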

Additional observations from a re-analysis of the deposited data

How the results depend on the processing

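The fat area slope, on which the genes were chosen, kept its sign under all 19 alternatives for NIT1 (0.050 to 0.106) and all 18 for JAM3 (-0.081 to -0.013). It moved by over its spread for NIT1 in the higher number series (0.060), in animals with high EIF1AY (0.063) and on the second probe set (0.050). For JAM3 it moved in the higher number series (-0.013) and in animals with low EIF1AY (-0.035). The drip loss slope of NIT1 changed sign in the higher number series (0.0062) and on the second probe set (0.016), and that of JAM3 with 5 principal components (-0.012) and in animals with low EIF1AY (-0.0047), with no alternative passing. The residual correlation of the pair had an unadjusted permutation p under 0.05 with 5 principal components (-0.148) and without the low-correlation arrays (-0.182) and changed sign in animals with high EIF1AY (0.0067).

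Counts of probe sets that passed moved too. For fat area and drip loss they stand beside those results. For co-variation with NIT1 the count of 3893 became 2594 in the lower number series, 2187 without the low-correlation arrays, 2007 and 572 with low and high EIF1AY, and 0 in limma in the higher series, where 2850 had an unadjusted p under 0.05. For JAM3 the count of 3257 became 4919 after quantile normalization, 1999 with 5 principal components, 1711 without the low-correlation arrays, 932 with low EIF1AY and 84 in the higher series. The cause of these moves was not tested, nor was the part of the fewer animals in each subset. No paired analysis was possible because the labels give a single group. The second probe set of NIT1 lies below the middle of the array in signal, with 38.1% of probe sets of lower mean and 0 animals at the floor. Its lower signal may limit what it can show.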

Other observations

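Drip loss, for which neither gene passed, did move with some genes from the lists around them. Of 26 measured genes of glutathione metabolism 3 rose with it in limma (GSTZ1, GSTO1 and GCLC) and 0 fell, against 268 increases among the 411 of 6765 genes that passed. GCLC, the catalytic subunit of the enzyme that starts glutathione synthesis, had a slope of 0.034 ± 0.010 (SE, n = 207) and an adjusted p of 0.027, and 23 of the 26 had a positive slope. Of 12 metabolite repair and transaminase genes 12 had a positive slope, and the share of positive slopes over all genes was not set beside either count. NAXD of that list, which repairs damaged NADH, passed. These calls did not last: with blocks of title numbers or 5 principal components in the fit 0 of the 26 and 0 of the 12 passed in limma, with 5 and 3, and 2 and 1, at an unadjusted p under 0.05. Without the arrays of low correlation 0 of the 26 passed, with 4 at an unadjusted p under 0.05, and NAXD did.

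The 8 animals without a fat area, which entered no fit on it, had a NIT1 level of 9.39 ± 0.24 (SD) and a JAM3 level of 7.66 ± 0.13 (SD).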
